A study of Mus musculus with 9 samples.

Results

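Macrophages of mouse ovarian cancer ascites were examined for 8 genes used to read alternative activation: Arg1, Mrc1, Chil3, Retnla, Il4ra, Nos2, Thbs1 and Vcan. Nos2 is not a sign of it but the enzyme of the contrasting classical activation. They are 8 of the 27998 genes in the matrix, and the rule takes them by name, not by a measured value. The cells came from 1 single-cell library of ascites, the fluid that collects in the peritoneal cavity, in the ID8-Def29/Vegf ovarian cancer model, with the genotype labelled B6_WT; the labels name neither a treatment nor the number of animals. The series also holds 8 bulk samples of cultured tumour cells, of which 4 received deferiprone (12 h) and 4 its vehicle, and these were not analysed here. Of 737280 barcodes, 6442 had at least 500 unique molecular identifiers (UMIs, each a counted RNA molecule), at least 200 genes and at most 15% mitochondrial UMIs. Macrophages were the 1076 of these (16.7%) with at least 3 UMIs of C1qa, C1qb and C1qc together and at most 1 of Krt8, Krt18, Krt19, Wt1 and Upk3b. The references were 530 barcodes called dendritic cells (class II genes at 1% or more of UMIs, at most 1 C1q UMI, no Cd79a or Cd79b) and 3064 tumour-like cells (at least 5 keratin, Wt1 and Upk3b UMIs, at most 1 C1q UMI, class II genes under 1%). With 1 library no difference could be tested. Every interval given is a 95% interval for counting error only and says nothing of other animals. It is exact Poisson for levels, exact Clopper-Pearson for shares and conditional binomial for ratios. The intervals of levels and ratios pool the UMIs of all cells in a group and leave out the spread between cells.

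Alternative activation is the state that macrophages take on under interleukin 4 or interleukin 13, which bind receptors containing the Il4ra chain and act through the transcription factor STAT6. Arg1 (arginase 1) splits arginine into ornithine and urea, and Nos2 (inducible nitric oxide synthase), the enzyme of classical activation, uses the same arginine for nitric oxide. Mrc1 is the mannose receptor CD206, Chil3 encodes the secreted chitinase-like protein Ym1 and Retnla the secreted protein RELM-alpha. Thbs1 (thrombospondin 1) and Vcan (the proteoglycan versican) are matrix proteins that monocytes and macrophages can make. Hmox1 (heme oxygenase 1) breaks down heme and releases its iron.

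The macrophage label was set against marker levels in CPM, the UMIs of a gene scaled to all UMIs of the class. C1qa, C1qb and C1qc belong to the rule, so only the other macrophage markers bear on it. Csf1r stood at 369 CPM in macrophages, 32.3 in dendritic cells and 1.38 in tumour-like cells, and Cd68 at 697, 113 and 14.6. Adgre1, Fcgr1 and Mertk, at 56.1 to 91.3 CPM, were also at least 2 times higher than in both references. The dendritic list summed to 145 CPM in macrophages against 483, with Xcr1 and Itgae at 0. Among genes of resident large peritoneal macrophages, Lyve1, Cd5l and Vsig4 were higher than in both references, whereas Timd4 had 2 UMIs and Gata6 21. Macrophages held a median of 1639.5 UMIs (range 500 to 5459), dendritic cells 1380.5 and tumour-like cells 5472. Free RNA made up an estimated 12.0% of macrophage UMIs, 16.0% in dendritic cells and 4.16% in tumour-like cells. The tumour-like estimate rests in part on C1qa, C1qb and C1qc, which the rule of that class caps, so it may be too low. Haemoglobin genes stood at 11641 CPM in macrophages, 12137 in dendritic cells and 1686 in tumour-like cells. At the edges of the rule lay 98 macrophages with 3 to 5 C1q UMIs and 31 barcodes left out with 2.

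Upstream sequences are shown for Retnla and Chil3, the 2 secreted products, because among the windows searched theirs held a STAT-type match. The choice thus followed the search, and a link of these matches to the measured levels was not tested. RefSeq promoters (GRCm38.p6) were at hand for 5 of the 8 genes: Mrc1, Chil3, Retnla, Il4ra and Vcan. The 250 bases before the annotated start were searched on both strands for TTC and GAA with 4 bases between them, the spacing that STAT6 prefers, and with 3 bases between them (TTCNNNGAA), which other STAT proteins share, and on the printed strand for TATAAA. Capitals mark the matches.
Retnla, chr16:48842359-48842608, + strand: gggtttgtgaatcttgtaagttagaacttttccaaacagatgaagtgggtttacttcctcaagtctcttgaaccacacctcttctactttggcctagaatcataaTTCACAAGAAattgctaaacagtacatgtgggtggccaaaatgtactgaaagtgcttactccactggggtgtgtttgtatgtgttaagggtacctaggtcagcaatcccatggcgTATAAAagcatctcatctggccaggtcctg
Chil3, chr3:106167565-106167814, - strand: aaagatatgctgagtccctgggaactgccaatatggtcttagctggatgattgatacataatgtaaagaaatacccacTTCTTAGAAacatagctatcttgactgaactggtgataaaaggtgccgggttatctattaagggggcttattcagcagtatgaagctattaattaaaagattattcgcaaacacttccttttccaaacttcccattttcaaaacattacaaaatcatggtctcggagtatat
Retnla held TTCACAAGAA, starting 145 bases before the RefSeq start, and TATAAA, starting 30 bases before it. The GENCODE start of Retnla, chr16:48842551, lies inside this window, so its TATAAA falls within the GENCODE gene span. Chil3 held TTCTTAGAA, starting 172 bases before the start. The windows of Mrc1, Il4ra and Vcan held none of these 3 strings. Of 32851 promoter windows of the same length, 5.85% held the motif with 4 bases between, 7.02% TTCNNNGAA and 7.59% TATAAA. These are matches of letters, not measured sites.

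The arginine enzymes lay at opposite ends of detection. Arg1 (ENSMUSG00000019987; GENCODE M21 on GRCm38, chr10:24915221-24927484, - strand) had 4061 UMIs in macrophages, in 688 of 1076 cells (63.9%, interval 61.0 to 66.8). Its level was 2131 CPM (2066 to 2197) in macrophages, 41 (28.2 to 57.6) in dendritic cells and 6.54 (5.41 to 7.83) in tumour-like cells, and none of these intervals overlapped. Free RNA alone would give 15.3, 20.4 and 5.30 CPM in these classes, so the tumour-like level was near that of free RNA. Macrophages held 86.0% of all Arg1 UMIs in the barcodes kept. The macrophage level was 52.0 times (37.0 to 75.6) the dendritic and 326 times (271 to 395) the tumour-like level. Nos2 (ENSMUSG00000020826; chr11:78920787-78960254, + strand) had 0 UMIs in every barcode of the matrix. For macrophages, a count of 0 allows a level of up to 1.57 CPM and a UMI in up to 0.279% of cells, both at 3 counts.

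Arg1 was spread over many macrophages in graded amounts. The cells with it held a median of 4 UMIs and at most 36, 316 cells held 5 or more, and the 108 macrophages richest in it held 44.1% of its UMIs. Cells with an Arg1 UMI were also set against the 388 without for a few other genes. Their class II level was 6274 CPM against 20381, Ccr2 (a chemokine receptor of monocyte-derived cells) 115 against 290.0, and Lyve1 168 against 41.2. They were also deeper, with a median of 1833 UMIs against 1394.5, and their haemoglobin level was 12999 CPM against 8368. The part of depth in these contrasts was not tested. The share of all genes that differ between these groups is not given, so the genes named are not shown to stand out.

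**Figure D1:**
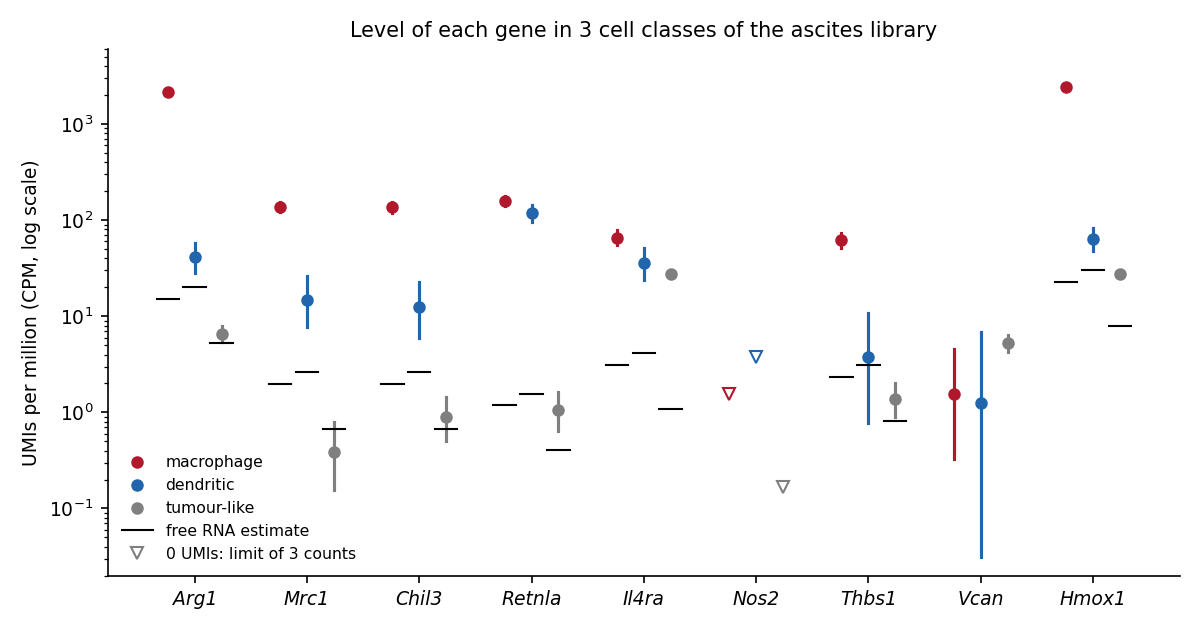
Level of each gene (CPM, log axis) in macrophages, dendritic cells and tumour-like cells, with exact Poisson 95% intervals, the free RNA estimate as a black bar, and open triangles at the 3-count limit where no UMI was seen. Arg1 and Hmox1 stand at 2131 and 2449 CPM in macrophages, the Retnla points of macrophages and dendritic cells lie close together (159 and 118 CPM), and Nos2 has triangles only.

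The 2 surface receptors were sparse, and they differed in how far they set macrophages apart. Mrc1 (ENSMUSG00000026712; chr2:14229392-14332057, + strand) had 260 UMIs in 211 macrophages (19.6%, 17.3 to 22.1). Of these cells 168 held a single UMI and none more than 3. Its level was 136 CPM (120.3 to 154) in macrophages, 14.9 (7.70 to 26.0) in dendritic cells and 0.388 (0.156 to 0.799) in tumour-like cells, a ratio of 9.15 (5.15 to 17.9) and of 352 (168 to 884). The tumour-like level was at or under the free RNA estimate of 0.679 CPM. Il4ra (ENSMUSG00000030748; chr7:125552120-125579474, + strand) was found in all 3 classes compared, at 65.6 CPM (54.6 to 78.1) in macrophages, 36 (24.1 to 51.7) in dendritic cells and 27.6 (25.3 to 30.2) in tumour-like cells. The dendritic and tumour-like intervals overlapped, and the macrophage interval lay above both, by 1.82 times (1.21 to 2.83) and 2.37 times (1.93 to 2.89). The unthinned share of cells gave another order, 10.6% of macrophages and 14.8% of the deeper tumour-like cells. After every cell was thinned at random to 2000 UMIs, the share was 11% (7.81 to 15) in 317 macrophages and 5.03% (4.27 to 5.88) in 2962 tumour-like cells. The dendritic interval at that depth, 3.03 to 16.8, overlapped that of macrophages.

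Chil3 and Retnla, the secreted products, were held by few cells but abundant in some of them. Chil3 (ENSMUSG00000040809; chr3:106147554-106167564, - strand) had 259 UMIs in 109 macrophages (10.1%, 8.39 to 12.1), up to 15 in one cell, and 5 cells held 21.6% of them. Its level was 136 CPM (119.8 to 153) against 12.4 (5.96 to 22.8) in dendritic cells and 0.886 (0.507 to 1.44) in tumour-like cells. Macrophages held 53.2% of its UMIs and unassigned barcodes 37.8% (184 UMIs in 50 barcodes). Among those, 13 barcodes had 5 or more Chil3 UMIs, with Ccr2 at 1112 CPM and S100a8, a neutrophil and monocyte gene, at 794 CPM. Both barcodes called neutrophils held Chil3, 9 UMIs in all. The near-identical Chil4 had 0 UMIs in the 3 classes.

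Retnla (ENSMUSG00000061100; chr16:48842551-48844461, + strand) had 303 UMIs in only 38 macrophages (3.53%, 2.51 to 4.82). In the cells that held it the median was 6 UMIs and the highest 39, and 20 cells with 5 or more carried 89.4% of its UMIs. Its level was 159 CPM (142 to 178) in macrophages, 118 (95.5 to 144) in dendritic cells and 1.05 (0.634 to 1.64) in tumour-like cells. The macrophage and dendritic intervals overlapped, and the ratio was 1.35 (1.07 to 1.72). That direction turned to 0.728 (0.558 to 0.954) when macrophages needed at least 10 C1q UMIs. The dendritic UMIs came from 16 barcodes. Their summed dendritic markers stood at 390.5 CPM (169 to 769, 8 UMIs), against 486 (438 to 537) in the other 514. Their summed macrophage markers, which include the C1q genes that the class rule caps, stood at 829.8 CPM against 238. Haemoglobin stood at 86689 CPM in those 16 barcodes, and at 979 CPM in the 6 of them with 5 or more Retnla UMIs.

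The matrix genes differed: of the 3 classes compared, Thbs1 was highest in macrophages, whereas Vcan had few UMIs there. Thbs1 (ENSMUSG00000040152; chr2:118111876-118127133, + strand) had 118 UMIs in 97 macrophages (9.01%, 7.37 to 10.9), at 61.9 CPM (51.2 to 74.1). Its dendritic level, 3.73 CPM from 3 UMIs, was near the free RNA estimate of 3.13, and its tumour-like level was 1.38 CPM (0.896 to 2.04). The macrophage level was 44.7 times (28.8 to 71.9) the tumour-like one. Outside these classes, the 26 fibroblast-like barcodes held 6 Thbs1 UMIs, 78.6 CPM (28.8 to 171), an interval that overlaps the macrophage one. Vcan (ENSMUSG00000021614; chr13:89655312-89742509, - strand) had 3 UMIs in macrophages and 95 in tumour-like cells, 1.57 CPM (0.325 to 4.60) against 5.26 (4.26 to 6.43). Its tumour-like level was 3.34 times the macrophage level, with an interval of 1.11 to 16.5, although the intervals of the levels overlapped. With no keratin UMI allowed in macrophages, the macrophage level was 0.377 times (0.0765 to 1.14) the tumour-like level, and that interval holds 1. Dendritic cells held 1 UMI, and that interval (0.0314 to 6.92) overlapped both.

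A filter of 20 CPM in either class left 6 members, and how each passed it limits what a count of them can show. Against dendritic cells, Mrc1, Chil3 and Thbs1 passed through macrophages only, and with 5 CPM added to both levels a gene that is high only there tends to come out higher. The 3 members that reached 20 CPM in both classes were Arg1, which was at least 2 times higher, and Retnla and Il4ra, which were not. Of the 4023 genes at 20 CPM in either class, 15% were at least 2 times higher and 8.35% at least 2 times lower. Of the 2728 genes at 20 CPM in both classes, 8.25% were higher and 4.36% lower. Against tumour-like cells 5 members passed through macrophages only. Il4ra, the member at 20 CPM in both classes, was at least 2 times higher with 5 CPM added and not with 20 CPM added. Of 4930 genes at 20 CPM in either class, 17.1% were higher than in tumour-like cells and 27.3% lower. Of 2630 genes at 20 CPM in both, 8.02% were higher and 15.6% lower.

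**Figure D2:**
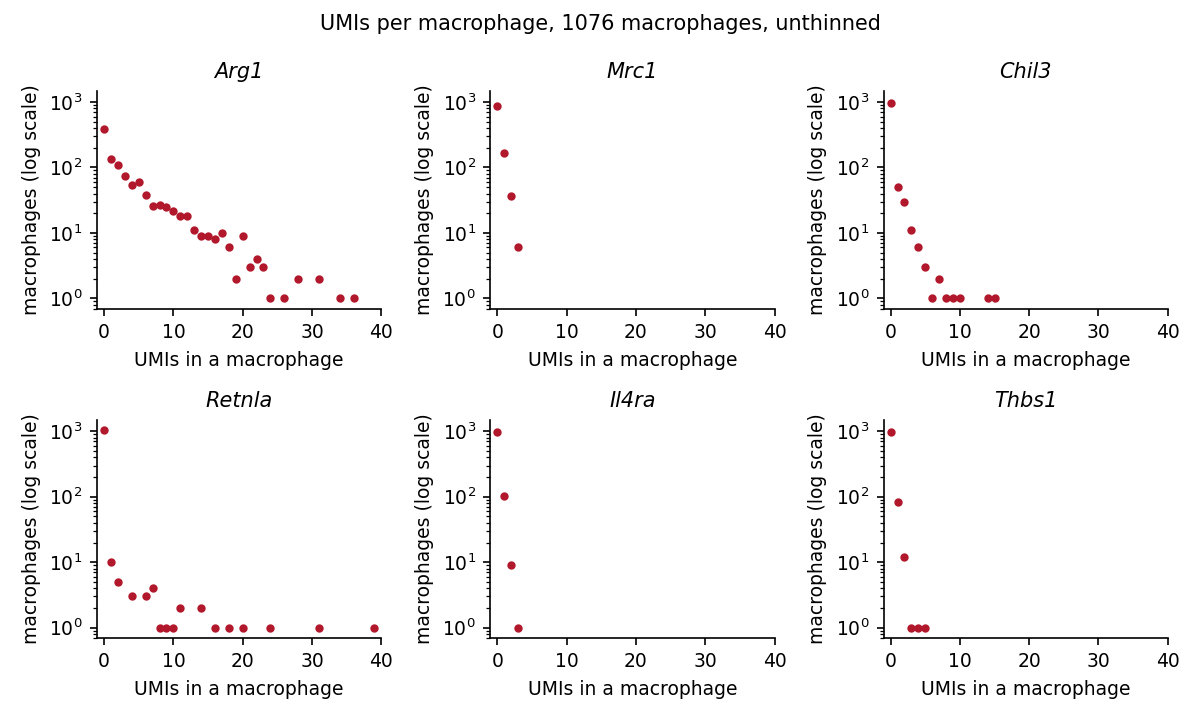
Number of macrophages (log axis) by the UMIs they held of 6 genes, among 1076 macrophages at full depth. Arg1 falls off gradually to 36 UMIs, Mrc1, Il4ra and Thbs1 end at 3, 3 and 5 UMIs, and Retnla has a long tail to 39 UMIs from 38 cells.

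Matched depth gave other shares than full depth. Thinning to 2000 UMIs left 317 macrophages, and 84.9% (80.4 to 88.6) of them held Arg1, 28.1% Mrc1, 9.78% Chil3, 3.47% Retnla, 7.89% Thbs1 and 0.315% Vcan. Thinning to 1000 UMIs left 950, of which 59.8% (56.6 to 62.9) held Arg1, 12.4% Mrc1, 7.26% Chil3, 3.26% Retnla, 6.63% Il4ra and 5.58% Thbs1. The deeper cells were not a random part of the macrophages. Over 4 equal groups of 269 macrophages by UMI total, from shallow to deep, the Arg1 level was 1137, 1146, 2238 and 2925 CPM. The Retnla level went the other way, at 306, 345, 75.9 and 65.4 CPM. The share of cells with Retnla showed no such fall, at 3.72%, 3.35%, 4.46% and 2.60% with overlapping intervals, and 5 cells held 43.6% of its UMIs. Because the deeper cells were not a random part, the results within macrophages are given first at 1000 UMIs, which keeps more cells. The depth planned for these results was 2000 UMIs, and values at that depth are given beside them.

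Few macrophages held 3 or more of these transcripts at once. At full depth 25% of the 1076 macrophages held none of the 8, 42.7% held 1, 23.7% held 2 and 7.62% held 3. These shares changed with depth: 9.78% held none and 33.8% held 2 at 2000 UMIs, and 29.9% and 17.1% at 1000 UMIs. They were not set against what the shares of the single genes would give. In the 950 cells at 1000 UMIs, Thbs1 was found in 7.57% (5.53 to 10.1) of cells with Arg1 and 2.62% (1.26 to 4.76) of cells without. Chil3 was found in 9.33% (7.07 to 12.0) of cells with Arg1 and 4.19% (2.41 to 6.71) of cells without. In both cases the intervals did not overlap in that random draw. In another draw at 1000 UMIs the Chil3 intervals stayed apart (7.16 to 12.2 and 2.37 to 6.59), and those of Thbs1 overlapped (4.08 to 8.16 and 1.60 to 5.33). These pairs shared a cell 1.36 and 1.28 times as often as the product of their shares, and 1.24 and 1.3 times in the other draw. At 2000 UMIs, where most cells held Arg1, the ratios were 1.18 and 1.14, and all 25 cells with Thbs1 held Arg1.

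Mrc1 did not follow Arg1. It was found in 11.1% (8.63 to 14.0) of cells with Arg1 and 14.4% (11 to 18.3) of cells without at 1000 UMIs, and in 27.9% (22.6 to 33.6) and 29.2% (17.0 to 44.1) at 2000 UMIs. Observed over expected sharing was 0.893 and 0.993, and 1.0 with another random draw at 1000 UMIs. Chil3 and Retnla were never seen in the same macrophage. At full depth they were in 109 and 38 cells and shared 0, where 3.85 cells would be expected from the product of the shares, so few cells stand behind this. Of the 10 pairs of members that were each in at least 5% of cells, 4 shared a cell at a rate of at least 5 to 4 against the product of shares at 1000 UMIs, beside 13.3% of all gene pairs, and 2 at 2000 UMIs, beside 20.5%. At 0.8 times or below stood 1 pair at either depth, beside 16.9% and 25.4% of gene pairs. In another draw at 1000 UMIs only 6 pairs had both genes in 5% of cells, none of them with Thbs1, and 2 reached 5 to 4. At 2000 UMIs another draw left 1 such pair of 10, so pairs of the rare members are not read singly.

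**Figure D3:**
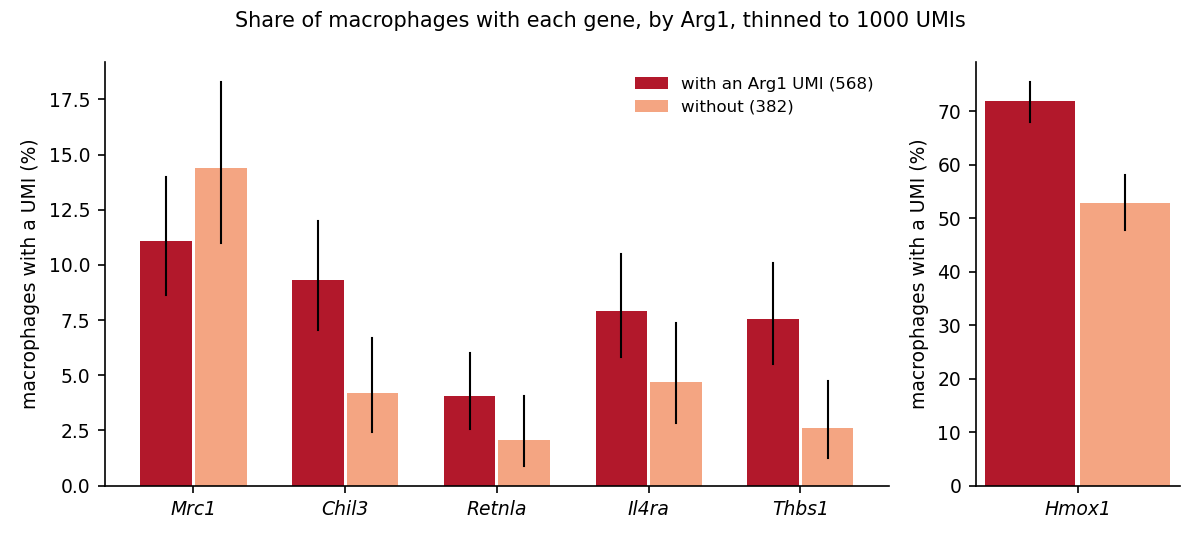
Share of macrophages (%) with a UMI of each gene among cells with and without an Arg1 UMI, thinned to 1000 UMIs, with exact 95% intervals as lines and Hmox1 on its own axis. Thbs1 (7.57% against 2.62%), Chil3 (9.33% against 4.19%) and Hmox1 (71.8% against 52.9%) have separate intervals, and those of Mrc1 overlap.

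Arg1 was higher in macrophages with more Hmox1. Hmox1 itself had 4668 UMIs in 763 macrophages (70.9%), at 2449 CPM, against 63.3 in dendritic and 27.7 in tumour-like cells. At 1000 UMIs, macrophages with 0 to 1 Hmox1 UMIs (528 cells) had Arg1 at 1396 CPM (1297 to 1500.4), those with 2 to 5 (299 cells) at 2452 (2277 to 2636) and those with 6 or more (123 cells) at 2715 (2432 to 3023). By counting error alone the lowest group lay apart, and the intervals of the upper groups overlapped. Arg1 counts varied between macrophages beyond counting error, with a variance of 7.52 times the mean at full depth, and these intervals leave that out. The highest group stood at 1.95 times (1.70 to 2.22) the lowest. At 2000 UMIs the groups had 2119, 2494 and 3438 CPM, a ratio of 1.62 (1.42 to 1.85). With Hmox1 split at its median the Arg1 ratio was 1.81 (1.65 to 1.99) at 1000 UMIs and 1.47 (1.34 to 1.61) at 2000 UMIs. With no keratin UMI allowed it was 1.49 at 2000 UMIs. With the groups as given Arg1 was past 1.5 times, as were 12.2% of 1707 genes at 1000 UMIs and 19.5% of 2890 genes at 2000 UMIs. At least 1.5 times lower were 13.3% and 16.0% of genes.

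For the other members the Hmox1 ratio changed with the depth or the random draw. From the lowest to the highest Hmox1 group at 1000 UMIs the ratio was 1.20 (0.655 to 2.07) for Mrc1, 0.791 (0.413 to 1.41) for Chil3, 0.904 (0.492 to 1.56) for Retnla, 1.48 (0.671 to 3.0) for Il4ra and 0.650 (0.198 to 1.68) for Thbs1. Each of these intervals holds 1. In another draw at 1000 UMIs, however, Mrc1 had a ratio of 2.11 (1.24 to 3.52). At 2000 UMIs the ratio was 1.38 (0.815 to 2.44) for Mrc1, 0.728 (0.381 to 1.44) for Chil3, 1.01 (0.398 to 2.88) for Il4ra and 2.5 (0.729 to 13.2) for Thbs1. Retnla stood at 3.33 (1.01 to 17.3) there, from 3 UMIs in the lowest group, so its direction turned with depth. With Hmox1 split at its median, Retnla stood at 1.84 (1.37 to 2.50) at 1000 UMIs and 0.825 (0.400 to 1.65) at 2000 UMIs. Depth, class II and haemoglobin moved with the Hmox1 groups. Across the 3 groups at 1000 UMIs the median total before thinning was 1586, 1888 and 2113 UMIs, the class II level 16358, 7415 and 4829 CPM, and the haemoglobin level 11561, 8161 and 6187 CPM. S100a8 and S100a9 together stood at 75.8, 114 and 285 CPM. At 2000 UMIs haemoglobin had no steady order, at 20455, 36247 and 5665 CPM. Their part in the Arg1 gradient was not tested. With the barcodes of at least 20 haemoglobin UMIs or at least 10 S100a8 and S100a9 UMIs left out, the Arg1 ratio at 2000 UMIs was 1.59.

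Class II expression split the members in opposite directions. At 1000 UMIs, Arg1 stood at 959 CPM (854 to 1073) in the 316 macrophages with class II genes at 1% or more of UMIs and at 2368 (2249 to 2490.4) in the 634 below 1%, a ratio of 0.405 (0.357 to 0.459). Chil3 stood at 22.2 CPM against 177, a ratio of 0.125 (0.0493 to 0.267), and Il4ra had a ratio of 0.522 (0.260 to 0.975). Retnla went the other way, at 522 CPM (446 to 608) against 36.3 (23.0 to 54.4), a ratio of 14.4 (9.27 to 23.3). Its UMIs came from 22 and 9 cells, 6.96% (4.41 to 10.4) and 1.42% (0.651 to 2.68) of these groups. At full depth Retnla counts had a variance of 17.2 times the mean, which the interval of the ratio leaves out. Mrc1 had a ratio of 0.662 (0.426 to 1.0) and Thbs1 of 1.14 (0.633 to 2.0). Of all genes, 6.10% were at least 1.5 times higher and 12.1% at least 1.5 times lower in the class II group. Hmox1 was lower there, at 0.523 times (0.469 to 0.582).

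The Retnla contrast also showed in numbers of cells at full depth, but not clearly at 2000 UMIs. At full depth Retnla was in 25 of 355 macrophages with class II genes at 1% or more (7.04%, 4.61 to 10.2) and in 13 of 721 below (1.80%, 0.963 to 3.06), although the former were shallower, with a median of 1487 UMIs against 1763. At 2000 UMIs 48 and 269 cells were left. Retnla was in 4 of the 48 (22 UMIs) and 7 of the 269 (16 UMIs). The intervals of these shares, 8.33% and 2.60%, overlapped. The ratio of levels was 7.71 (3.87 to 15.7) for Retnla, by counting error of UMIs alone. For Arg1 it was 0.595 (0.506 to 0.695), beside 14.6% of genes higher and 23.9% lower. Of the others, Mrc1 had a ratio of 0.444 (0.187 to 0.909), Chil3 0.280 (0.0562 to 0.859), Il4ra 0.144 (0.00355 to 0.849) and Thbs1 0.623 (0.121 to 2.02) at 2000 UMIs. The 38 macrophages with Retnla had an Arg1 level of 2501 CPM (2135 to 2911), beside 2117 (2051 to 2185) in the other macrophages.

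Macrophages with a Ccr2 UMI showed the same directions for Arg1, Chil3 and Retnla. At 1000 UMIs, Arg1 stood at 0.605 times (0.513 to 0.710), Chil3 at 0.206 times (0.0553 to 0.543) and Retnla at 3.85 times (2.84 to 5.21) the level of cells without one, in 137 and 813 cells. Mrc1 was at 0.934 times (0.525 to 1.57). Of all genes, 6.91% were at least 1.5 times higher and 14.8% at least 1.5 times lower. At 2000 UMIs the ratio was 0.511 (0.423 to 0.612) for Arg1 and 2.47 (1.07 to 5.25) for Retnla, in 40 and 277 cells, and Chil3 had 0 UMIs in the 40 cells (ratio up to 0.418), beside 16.0% of genes higher and 23.0% lower. The Ccr2 and class II groups share cells: class II genes stood at 21649.6 CPM in cells with Ccr2 and 10433 in those without. The shares of cells with Retnla in the Ccr2 groups at 1000 UMIs, 5.11% and 2.95%, rested on 7 and 24 cells. At 2000 UMIs they rested on 2 cells (10 UMIs) and 9 cells (28 UMIs). At both depths the intervals of the shares overlapped.

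**Figure D4:**
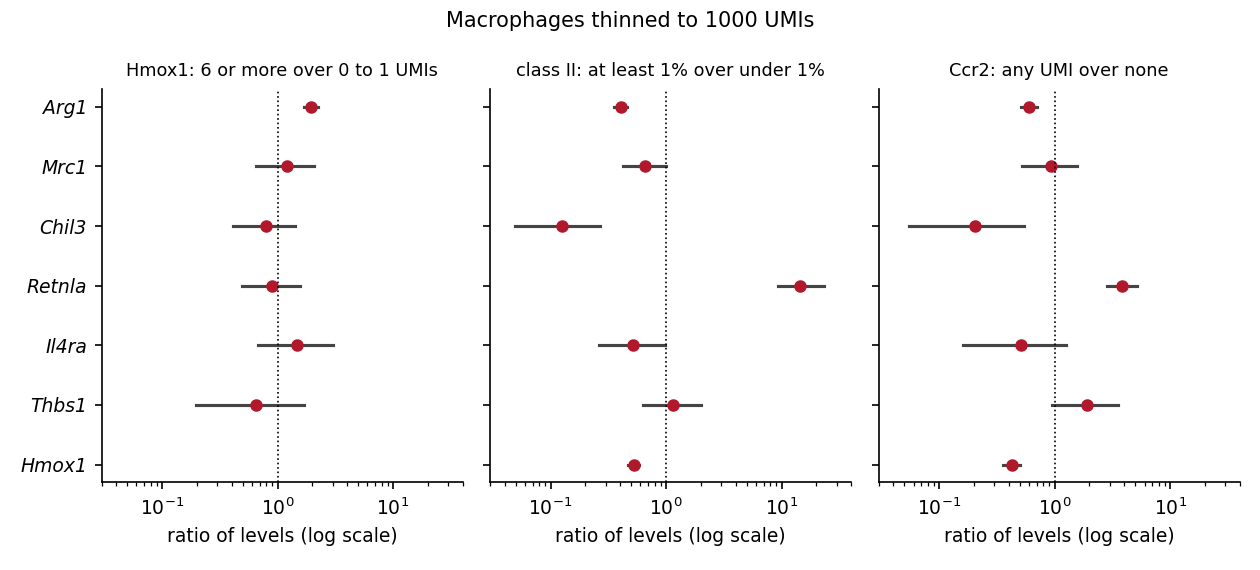
Ratio of levels (log axis) between groups of macrophages thinned to 1000 UMIs, split by Hmox1, by class II share and by Ccr2, with exact conditional binomial 95% intervals and a dotted line at 1. Arg1 lies right of the line for Hmox1 (1.95) and left of it for class II (0.405), and Retnla lies far right for class II (14.4).

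The genes whose counts followed Arg1 most closely across the 317 macrophages at 2000 UMIs were Saa3, an acute-phase protein gene (Pearson r of log counts 0.43), Srgn, a granule proteoglycan gene (0.34), and Fn1, the fibronectin gene (0.31). Hmox1 ranked 14 of 2890 genes, at 0.23. At 1000 UMIs the first places were Wfdc17 (0.42), Saa3 (0.39) and Pf4 (0.34), and Hmox1 ranked 8 of 1707, at 0.26. For Mrc1 they were Sar1b (0.29), Mfsd1 (0.24) and Ifi27 (0.20), and for Il4ra Nrros (0.20), Trpv4 (0.19) and Dok2 (0.19). In counts this sparse the values for Mrc1 and Il4ra are weak and are given as a description. All these cells share 1 library.

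Around the receptor, the signalling genes were sparse. Counts for this list and the next are descriptions, read beside the shares of all genes given earlier (15% higher and 8.35% lower than in dendritic cells, 17.1% and 27.3% against tumour-like cells). A gene that reached 20 CPM in macrophages only passed the filter through the class where it is high. Of 16 genes of interleukin 4 and 13 signalling, 7 reached 20 CPM in macrophages or tumour-like cells, and 4 were at least 2 times higher in macrophages: Il4ra, Il2rg (the common gamma chain, 29.9 CPM against 0.776), Stat6 (34.1 against 11.4) and Cebpb (57.7 against 12.7). None was lower, and 3 of the 7 had passed through macrophages only. Against dendritic cells 2 of 7 were higher (Stat6, Cebpb) and 1 lower (Kdm6b). Stat6 and Cebpb had passed through macrophages only, and of the 5 genes at 20 CPM in both classes none was higher. The cytokine Il4 had 1 UMI in macrophages and Il13 had 0.

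Of 18 other genes of alternative activation in the matrix, 10 were compared with tumour-like cells, 8 of which had passed the filter through macrophages only. In all 9 were higher, among them Trem2 (a lipid receptor, 789.7 CPM against 6.26), Ccl24 (a chemokine for eosinophils, 245 against 2.49) and Stab1 (a scavenger receptor, 171 against 0.720). Tgm2 was lower, at 30.4 CPM against 91.2. Against dendritic cells 7 of 12 were higher, where 6 had passed through macrophages only, including Cd163, the haemoglobin scavenger receptor, at 124 CPM against 0 UMIs, and Ccl17 and Mgl2 were lower (Ccl17 1.05 CPM against 115). Among 16 genes of classical activation 6 were compared with tumour-like cells, and Il1b, Cd86 and Socs3 were higher and Gch1 lower, 2 of the 6 having passed through macrophages only. Against dendritic cells none of 6 was higher and Il1b was lower, at 49.8 CPM against 161.

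Upstream and downstream of arginase lie 15 genes for arginine transport and use of arginase products, of which 11 were compared with tumour-like cells. The 2 higher and 4 lower among them stand beside 17.1% and 27.3% of all genes. Slc7a7, a transporter of basic amino acids, and Sat1, which acetylates polyamines, were higher (Sat1 480.1 CPM against 72.8). Slc7a1, the main arginine importer of many cells, Azin1, Amd1 and Sms were lower. Slc7a1, Azin1 and Amd1 had passed the filter through tumour-like cells only, the class where they are high, and Slc7a7 through macrophages only. Of the 5 list genes at 20 CPM in both classes, 1 was higher (Sat1) and 1 lower (Sms), beside 8.02% and 15.6% of all such genes. Odc1, which turns ornithine into putrescine, was at 24.7 CPM against 54.2. Arg2, the mitochondrial arginase, had 1 UMI in macrophages. Of 15 binding partners and matrix enzymes of thrombospondin and versican, 6 were compared with tumour-like cells, 3 of them after passing through macrophages only, and 3 were higher: Cd36, a receptor of thrombospondin 1 (243 CPM against 0.997), Cd44, a hyaluronan receptor (74.0 against 6.09), and Tlr2 (36.2 against 1.44).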

How the data were processed

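The authors deposited, for 1 10x Genomics library, a UMI count for each gene in each barcode, 35733776 UMIs in all, in a matrix to which the authors had applied no selection of barcodes. Aligner and build: not given in the sources used here. The bulk table was not used, because the names of its 8 columns match no sample label. The members and gene lists were chosen with earlier results of these data known.

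CPM is a gene's UMI sum in a class over all UMIs of that class. Free RNA was estimated from barcodes with 1 to 50 UMIs, scaled by genes foreign to a class. For shares, pairs and splits, macrophages were thinned without replacement to 2000 UMIs (317 cells) or 1000 UMIs (950 cells). Classes were compared for genes at 20 CPM or more in either, called at 2 times with 5 CPM added. Splits were called at 1.5 times and pairs at 5 to 4 or more, or at 0.8 times or less, against the product of shares, each beside all genes in at least 5% of cells. Named genes were the members, list genes with at least 10 UMIs in macrophages, and the 3 genes most correlated with each member found in at least 10% of thinned macrophages. Genes under 10 UMIs (Il4, Il13, Arg2, Ccl17, Chil4, Timd4, Selp, F5, Garnl3, Xcr1, Itgae) were named after their values were seen. Scrublet (scanpy 1.11.5) marked 87 of the 6442 barcodes (1.35%) as doublets. Among them were 23 of the 530 dendritic cells (4.34%), 13 of the 3064 tumour-like cells (0.424%) and 0 macrophages. None were removed. The thinning, pair and ratio code was tested on simulated cells. Python 3.11.15, numpy 2.4.6, scipy 1.17.1 and pandas 2.3.3 were used. Alternatives changed the class rules, filters, depth, random draw and pseudocount.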

Additional observations from a re-analysis of the deposited data

Results flagged for a closer look

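Member UMIs were also present in the 993 barcodes with at least 500 UMIs that failed the cell filter and entered no comparison, at more than the 3 counts that a count of 0 allows. There were 33 UMIs of Arg1, 4 of Mrc1, 10 of Retnla, 63 of Il4ra, 6 of Thbs1 and 13 of Vcan. The source of these UMIs was not tested.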

How the results depend on the processing

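Of 508 values recomputed under 14 alternatives, 466 stayed within the interval or limit of the reported value, 38 moved and 4 reversed. For shares, pairs and splits the reported value here is the one at 2000 UMIs, not the one at 1000 UMIs. Many of the 466 could not move. Limits of 10% mitochondrial UMIs or 1000 UMIs per barcode, and leaving doublets out, kept the same 317 macrophages thinned to 2000 UMIs. Their shares, pairs and splits were therefore the same by construction. The reversed values all concern Retnla. Its macrophage to dendritic ratio was 0.728 with at least 10 C1q UMIs. Its Hmox1 ratio was 3.33 at 2000 UMIs, from 3 UMIs in the lowest group. That ratio was 0.904 at 1000 UMIs, 0.729 there with another random draw, and 0.825 at 2000 UMIs with Hmox1 split at its median. The median split at 1000 UMIs, not among the 508 values, gave 1.84 (1.37 to 2.50) for Retnla. At 1000 UMIs the shares were 59.8% for Arg1, 12.4% for Mrc1, 6.63% for Il4ra and 0% for Vcan, and without thinning 63.9% for Arg1 and 19.6% for Mrc1. Fewer UMIs per cell and other cells enter there. The Arg1 ratio for Hmox1 was 1.95 at 1000 UMIs and 1.96 with another draw. The Arg1 ratio for class II was 0.405 at 1000 UMIs, 0.366 with another draw there and 0.436 with another draw at 2000 UMIs. Pairs at 5 to 4 or more numbered 4 at 1000 UMIs and 1 with another draw at 2000 UMIs, and pairs at 0.8 times or below numbered 2 with no keratin UMI allowed, against 2 and 1 as reported. The cause of these changes was not tested. Leaving out barcodes rich in haemoglobin or S100 genes, and the other draw at 1000 UMIs, were added after seeing the data. No ratio could be given where the group compared against had 0 UMIs. Depth limits Vcan, Nos2 and the pairs of rare genes. No paired analysis was possible because the comparisons lie within 1 library and the bulk columns carry no name that matches a label.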
